A study of Mus musculus with 18 samples.

Results

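Serpins are a large superfamily of proteins that share one fold, and this account covers the serpin genes of the mouse in sorted cells of the gastrulating embryo. The members were all gene rows whose symbol is Serpin followed by a clade letter from a to i, a number and an optional suffix, which gave 63 genes of the 24498 in the table. Of these 63, 16 reached 10 in 3 or more of the 18 libraries and were tested, and 47 did not.

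Most serpins inhibit serine proteases as suicide substrates: the target protease cuts an exposed reactive loop, the loop inserts into a central sheet, and protease and inhibitor remain covalently bound in a complex that endocytic receptors of the LDL receptor family clear. Secreted members hold blood coagulation, fibrinolysis and complement in check, the clade b members act mainly inside cells against granzymes, cathepsins and leukocyte elastase, and a few have no inhibitory role, such as Hsp47, the collagen chaperone of the endoplasmic reticulum. Visceral endoderm, the absorptive and secretory epithelium around the early embryo, makes many plasma proteins before there is a liver, and parietal endoderm lays down the thick collagen IV and laminin sheet known as Reichert's membrane.

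RNA came from cells of E7.5 mouse embryos homozygous for a knock-in that fuses tagRFP to FoxA2, a forkhead factor of endoderm, node and notochord. In the WT groups the fused FoxA2 was intact, and in the ΔHx groups it lacked 10 amino acids forming an α-helix that the series describes as critical for activating targets; both genotypes therefore carried the tag on both alleles. Cells were sorted by red fluorescence into High (above the level of heterozygous embryos), Mid (from autofluorescence up to the heterozygous maximum) and Neg, with 3 libraries for each of the 6 groups of genotype and gate. Each sort pooled about 10 unsexed embryos of a mixed C57Bl6/J and CD-1 background after their extra-embryonic portion had been removed, a sort yielded 2500 to 5000 cells, and the RNA of 1000 cell equivalents was made into an unstranded SMART-Seq2 library. The labels call the libraries of a group biological replicates and do not say more, so p-values measure the spread between these samples.

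Each library held between 12302196 and 17194136 reads in genes, and 1 read was worth 0.825 to 1.37 units of the deposited value, a read count divided by a size factor. Foxa2 followed the gates, with 2483, 1742 and 1556 in the WT High libraries, 871, 812 and 621 in those of WT Mid and 40.6, 20.3 and 23.6 in those of WT Neg; the deletion leaves most of the transcript in place, so this checks the gates and not the deletion. Node and notochord markers summed to 37719 to 52695 in the High libraries of WT, 8523 to 10830 in Mid and 2042 to 3912 in Neg. Visceral endoderm markers summed to 59880 to 69616 in the 6 Mid libraries against 3764 to 15388 in the other 12, with Alb at 0 in every group. The 13 parietal endoderm markers stood apart in WT Mid, where they summed to 272465, 46635 and 71579 in replicates 1, 2 and 3, against 21698, 21095 and 26967 in ΔHx Mid and 11492 to 16557 in the other 12 libraries. WT Mid replicate 1 thus differed from the other Mid libraries, and several serpin results that rest on it are given with and without it. The gate changes of Serping1 and the genotype difference of Serpinb6c in Mid are given only with it. So are the changes of the marker and related lists and their genes.

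The promoters of 3 members that were high in a Mid group are shown for orientation, as examples: Serpinc1, which encodes antithrombin, Serpinb6c, a clade b member, and Serpinh1, which encodes Hsp47. No RefSeq promoter was found for Serping1. The Serpinf2 window, not shown, overlapped its own exons by 90 bases and held a GATA site 230 bases before the start. Each sequence is the 250 bases before the RefSeq transcript start on GRCm38.p6 (the assembly also called mm10), read 5′ to 3′ on the gene's strand, and capitals mark GGGCGG, the GC box, on either strand. The windows are chr1:160978333-160978582 on the plus strand for Serpinc1, chr13:33905192-33905441 on the minus strand for Serpinb6c and chr7:99353240-99353489 on the minus strand for Serpinh1, and none overlaps an exon of its own gene in GENCODE. The Serpinb6c window lies inside the span of the GENCODE gene, which begins farther upstream.
Serpinc1: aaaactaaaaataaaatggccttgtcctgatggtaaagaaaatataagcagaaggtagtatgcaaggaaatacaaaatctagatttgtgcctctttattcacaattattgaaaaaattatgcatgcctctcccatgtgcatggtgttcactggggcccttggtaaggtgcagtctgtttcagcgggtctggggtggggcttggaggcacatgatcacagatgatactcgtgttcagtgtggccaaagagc
Serpinb6c: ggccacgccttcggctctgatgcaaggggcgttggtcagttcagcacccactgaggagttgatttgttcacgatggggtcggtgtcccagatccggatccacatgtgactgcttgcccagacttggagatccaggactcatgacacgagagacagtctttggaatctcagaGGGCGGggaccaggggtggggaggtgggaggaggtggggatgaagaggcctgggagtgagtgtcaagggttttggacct
Serpinh1: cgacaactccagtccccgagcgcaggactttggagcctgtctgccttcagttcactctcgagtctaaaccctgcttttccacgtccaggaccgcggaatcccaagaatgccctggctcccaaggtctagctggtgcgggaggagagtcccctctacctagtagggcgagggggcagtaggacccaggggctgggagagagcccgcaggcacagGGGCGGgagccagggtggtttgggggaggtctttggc
The GC box lay 79 bases before the start in Serpinb6c and 37 bases before it in Serpinh1, and the Serpinc1 window held none. RefSeq promoters were found for 53 of the 63 members and for 13 of the 16 tested ones. Of these 13, 5 held a GC box, which 32.7% of all 32851 promoters of this length held. The forkhead core TGTTTAC, on either strand, was in 0 of 13, against 3.17% of all promoters. GATA sites (AGATAA, either strand) were in 2 of 13, against 9.99%. The HNF1 palindrome and the HNF4 motif CAAAGTCCA, both on either strand, were in 0 of 13 each, against 0.00913% and 0.384% of all promoters. Heat shock pairs were in 1 of 13 as GAANNTTC and in 1 of 13 as TTCNNGAA, against 6.69% and 7.17%, and a TATAAA on the given strand was in 0 of 13, against 7.59%. No motif searched overlapped another in the 3 windows shown. A match here describes letters in a window and not a bound site, and a window without one says nothing about the factor.

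Across the family, expression was concentrated in few genes. Of the 47 members not tested, 2 had no read in any library (Serpinb3d and Serpinb9d), the median was 7 reads over all 18 libraries, and the highest group mean was 9.89. By clade, 2 of 25 clade a genes, 6 of 27 clade b genes, 1 of 3 clade e genes and 1 of 2 clade i genes were tested, as were both clade f genes and the single genes of clades c, d, g and h. The clade a genes lie mainly in a cluster on chromosome 12, where 2 of 24 members were tested, and all 6 tested clade b genes lie on chromosome 13, where 15 members lie in all. Many clustered serpins are near-copies: 15 of the 63 share over 10% of their 75-base windows with another gene, 13 of them among the 47 untested, so a low value there can also reflect reads that were not counted as unique.

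Serpinh1 alone held 66.8% to 90.1% of the serpin reads of a library. Per kilobase of the longest coding transcript in GENCODE, the mean level of Serpinh1 in WT High was 1821, followed by Serpinb6a at 415 and Serpine2 at 293, and every other member was at or below 38.2. In WT Mid the order was Serpinh1 (6870.2), Serpinb6a (590.0), Serping1 (282), Serpine2 (228), Serpinf2 (122), Serpinb6c (89.6), Serpinb1a (14.8), Serpinb6b (14.5) and Serpinc1 (13.9). In ΔHx Mid, Serpinh1 (1933), Serpinb6a (488), Serpine2 (205) and Serpinf2 (116) led, and Serping1 was at 43.3. These lengths may differ from the exons the authors counted, since no source used here names their annotation. Without WT Mid replicate 1 the WT Mid level of Serpinh1 was 3432 per kilobase, and Serping1 stood below Serpine2 and Serpinf2, at 119 against 219 and 144. Serpinb6a stayed next to Serpinh1 at 506, and Serpinb6b (16.8) and Serpinc1 (16.2) then stood above Serpinb1a (14.7).

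**Figure D1:**
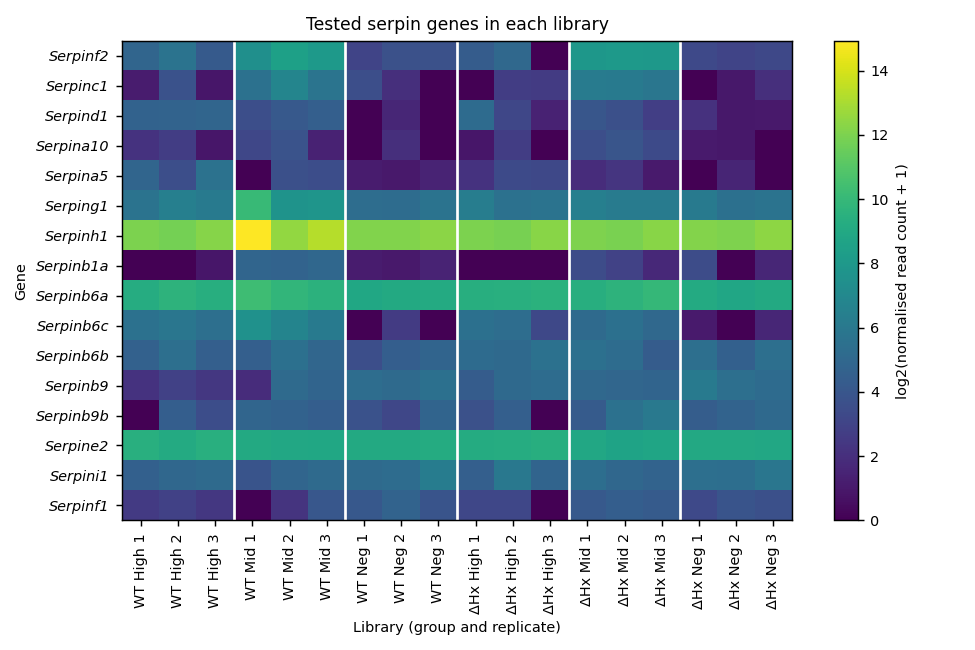
Level of the 16 tested serpin genes (rows) in each of the 18 libraries (columns, by genotype, gate and replicate), as log2 of the normalised read count plus 1 in colour. Serpinh1 is the brightest row throughout, and Serpinf2 and Serpinc1 are each brightest in the 6 Mid libraries.

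The first question was which serpins differ between the gates of one genotype. Mid against Neg gave 8 rises among the 16 tested in WT, where 32.9% of the 14711 genes tested were called and 17.4% rose, and 6 rises in ΔHx, where 34.3% were called and 17.9% rose; 0 members fell by limma, edgeR or DESeq2 in either, and in WT 2 (Serpinb9 and Serpinf1) were lower at an unadjusted p under 0.05. In High against Neg, 3 members rose and 1 fell in WT, where 44.4% of all genes tested were called in either direction, and 2 rose in ΔHx, where 42.6% of genes were called and 21.5% rose. High against Mid gave 1 rise and 6 falls in WT, where 24.4% of genes were called, and 1 rise and 4 falls in ΔHx, where 25.6% were. The median change of the 16 was 1.27 on the log2 scale in WT Mid against Neg and 0.66 in ΔHx, beside 0.00 over all genes tested in both; in High against Neg it was 0.31 in WT and 0.14 in ΔHx, beside 0.02 and 0.01. It was -1.03 for High against Mid in WT and -0.30 in ΔHx, beside -0.01 over all genes in both, and placing a gene without reads in a group at its bound left these medians as they were. These counts describe genes that passed the filter on low values and support nothing further. Serpina10 passed through 3 libraries, all of them Mid. A gene that passes only where it is high was selected toward a difference, whether or not it is called. Without Serpina10, 5 rises in ΔHx Mid against Neg and 3 falls in ΔHx High against Mid are left. Serpinb1a passed only with its WT Mid libraries, Serpina5 only with its WT High libraries and Serpinc1 only with Mid libraries. The same limit holds for Serpinb1a in WT Mid against Neg and WT High against Mid, and for Serpina5 in WT High against Neg. It holds also for Serpinc1 between Mid and the other gates in both genotypes. Under quantile normalisation the members split into 8 rises and 3 falls in WT Mid against Neg and 3 rises and 3 falls in WT High against Neg, with Serpinf1, Serpini1 and Serpinb9 as the falls in each. Libraries rescaled to equal totals without Rn45s, a ribosomal RNA precursor, moved the median of all genes in High against Neg from 0.02 to 0.13 in WT and from 0.01 to 0.11 in ΔHx, and the calls over all genes from 3331 rises and 3201 falls to 3931 and 2547 in WT. On these rescaled values the members gave 5 rises and 1 fall in WT and 5 rises in ΔHx, with Serpinb6a and Serpine2 added in both. Each change was tested against 0 and not against that shift, so the added calls include it.

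Antithrombin and antiplasmin were high in the Mid gate of both genotypes. Serpinc1 (chr1:160978585-161005863, plus strand) encodes antithrombin, which inhibits thrombin and factor Xa in plasma. Mid libraries of WT held 46.6, 109 and 52.3, and those of ΔHx held 74.4, 69.2 and 58.2. Neg libraries held 11.1, 3.04 and 0 for WT and 0, 0.933 and 3.1 for ΔHx. High gave 1.2, 12.7 and 0.886 in WT and 0, 5.43 and 4.95 in ΔHx, so all 6 Mid libraries lay above the other 12. By limma Serpinc1 rose in Mid against Neg by 4.16 (SE 0.93, adjusted p = 0.00194) on the log2(value + 1) scale in WT and by 5.09 (SE 0.93, adjusted p = 0.000351) in ΔHx, and the difference of High minus Mid was -4.09 (SE 0.93, adjusted p = 0.00286) and -4.33 (SE 0.93, adjusted p = 0.00181). Of the 75-base windows of the Serpinc1 exons in GENCODE, 32.6% lie also in exons of Zbtb37, so without strand its counts could include or lose reads of that gene.

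Serpinf2 (chr11:75431732-75439591, minus strand) encodes antiplasmin, the fast plasma inhibitor of plasmin. It reached 174, 356 and 273 in Mid of WT and 240.1, 274 and 246 in Mid of ΔHx. The Neg libraries held 7.39, 12.2 and 11.8 in WT and 8.93, 7.46 and 8.26 in ΔHx, a low level in every one of them. High lay between the other gates in WT, at 28.8, 51 and 17.7, and spread from 0 to 31.7 in ΔHx (19.3, 31.7 and 0). The rise in Mid against Neg was 4.52 (SE 0.81, adjusted p = 0.000309) in WT and 4.79 (SE 0.81, adjusted p = 0.000187) in ΔHx, and High minus Mid was -3.07 (SE 0.81, adjusted p = 0.00881) and -4.86 (SE 0.81, adjusted p = 0.0002) (limma). Across the 18 libraries Serpinf2 was highest in the 6 with the highest summed visceral endoderm markers and, among the rest, highest in WT High replicate 2, which had the highest sum of those 12 at 15388. Whether more visceral endoderm cells or more RNA per cell gave these values cannot be told apart in RNA of sorted pools, and this holds for every gate difference below.

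Serpind1, heparin cofactor II, another thrombin inhibitor, was high in both sorted positive gates of WT. Its values were 25.2, 26.4 and 28.4 in WT High and 11, 17.2 and 21.8 in WT Mid against 0, 2.03 and 0 in WT Neg. Counted in reads, WT High held 82 against 2 in WT Neg, a ratio of 38.9 (exact 95% interval 10.4 to 326), and WT Mid held 51 against 2, a ratio of 25.3 (6.66 to 215); limma called both (adjusted p = 0.000176 and 0.00158). In ΔHx the High libraries spread over 36.8, 8.15 and 1.65 and overlapped those of Neg (3.35, 0.933 and 1.03), while Mid held 14.9, 11.7 and 5.7. The rise in ΔHx Mid against Neg, 2.1 (SE 0.77, adjusted p = 0.0417), ended without ΔHx Mid replicate 1 or 2 or ΔHx Neg replicate 2 or 3 (adjusted p = 0.118, 0.100, 0.117 and 0.111), and with edgeR (0.0511), no filter (0.0683) or a pseudocount of 5 (0.0622). Serpina10, the protein Z-dependent inhibitor of factor Xa, had 11.2, 14.6 and 9.12 in ΔHx Mid and 8.22, 13.4 and 1.74 in WT Mid. Neg of ΔHx held 1.12, 0.933 and 0, and High 0.877, 5.43 and 0, all below ΔHx Mid. It counted 35 reads in ΔHx Mid against 2 in ΔHx Neg, a ratio of 17.3 (4.43 to 148). The gene was tested because of its values in Mid, so its changes between gates are given as a description with no test, although it is among the limma calls counted above for ΔHx Mid against Neg and for ΔHx High against Mid.

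Serpina5, the protein C inhibitor, had its highest values in the High gate of WT. It stood at 28.8, 10.9 and 48.7 in WT High, 0, 11.5 and 10.5 in WT Mid and 1.23, 1.01 and 1.81 in WT Neg. Outside WT High it reached 10 only in the WT Mid libraries at 11.5 and 10.5, so it was tested because of WT High. The rise in WT High against Neg, 3.48 on the log2(value + 1) scale, is therefore given as a description with no test. It is among the limma calls counted above. In ΔHx High the values were 3.51, 9.06 and 8.25, and 24 reads there against 2 in ΔHx Neg gave a ratio of 10.2 (2.53 to 89.0; limma adjusted p = 0.0319). That call ended without ΔHx High replicate 2 or 3 (0.0940 and 0.0802), without ΔHx Neg replicate 1 or 3 (0.0992 and 0.0989) and with a pseudocount of 5 (0.0724).

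Serpine2 (chr1:79794197-79861180, minus strand) encodes protease nexin, a cell-associated inhibitor of thrombin and of the plasminogen activators, and its level varied little between groups. Its 18 values ran from 411 to 692 with a median of 531. High held 685, 566 and 692 in WT and 576, 599 and 651 in ΔHx, Mid held 543, 485 and 482 and 502, 411 and 446, and in both genotypes all 3 High libraries lay above all 3 Mid libraries. High was higher than Mid by 0.36 (SE 0.11, adjusted p = 0.0264) in WT and 0.43 (SE 0.11, adjusted p = 0.00913) in ΔHx (limma). The WT call ended without WT High replicate 1 or 3 (0.100 and 0.0975), without WT Mid replicate 2 or 3 (0.0792 and 0.0752) and with the compared groups alone (0.123), and the ΔHx call ended without ΔHx Mid replicate 2 (adjusted p = 0.0500, just above the threshold). Serpine2 was the 1 member higher in High than in Mid in each genotype by limma.

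**Figure D2:**
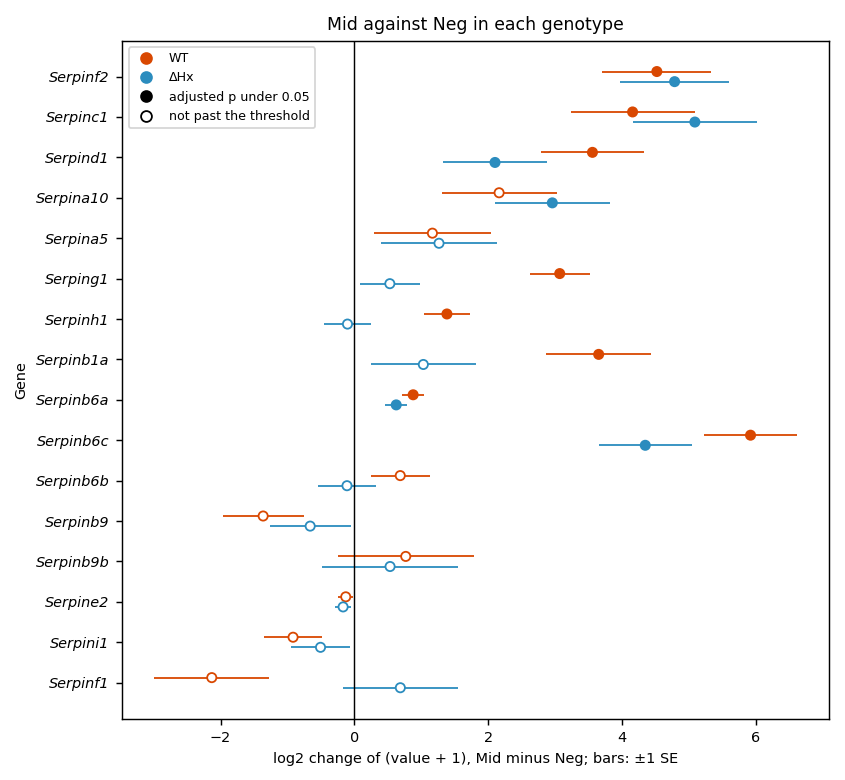
Change of the 16 tested serpin genes in Mid against Neg for WT and ΔHx, as the difference of log2(value + 1) on the x axis, with bars of 1 standard error and filled points for an adjusted p under 0.05. Serpinf2, Serpinc1, Serpind1, Serpinb6a and Serpinb6c are filled in both genotypes; Serping1, Serpinh1 and Serpinb1a are filled in WT, and Serpina10 in ΔHx.

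Clade b serpins act mainly inside cells, and the tested ones differed in which gates held them. Serpinb6a (chr13:33917918-34002794, minus strand), a broadly expressed inhibitor of trypsin-like proteases and cathepsin G, was present in every library at 464 to 1252. Mid held 1252, 898 and 778 in WT and 646, 797 and 979.5 in ΔHx, and Neg held 466, 535 and 563 and 560.3, 464 and 528, without overlap. It rose in Mid against Neg by 0.88 (SE 0.17, adjusted p = 0.000557) in WT and 0.63 (SE 0.17, adjusted p = 0.00762) in ΔHx by limma; the ΔHx call ended without ΔHx Mid replicate 3 (0.48, adjusted p = 0.0535). High held 598, 805 and 654 in WT, overlapping Mid, and the call of High below Mid, -0.49 (SE 0.17, adjusted p = 0.0391), ended without WT High replicate 1 or 3 (0.157 and 0.0958) or WT Mid replicate 1 or 2 (0.222, at a change of -0.30, and 0.0557), with no filter (0.0564), quantile normalisation (0.0543), equal totals (0.0895), array weights (-0.31, 0.0703), the compared groups alone (0.131) and the replicate block (0.0520). Of its windows, 22.0% lie also in exons of 1110046J04Rik, Nqo2 or Ripk1.

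Serpinb6c (chr13:33879816-33905708, minus strand) was close to absent from Neg and present in both other gates. Neg held 0, 5.07 and 0 in WT and 1.12, 0 and 2.06 in ΔHx. High held 46.8, 56.4 and 43.4 in WT and 43.8, 39.8 and 8.25 in ΔHx. Mid held 184, 104 and 68.9 in WT and 35.4, 44.9 and 31.9 in ΔHx, so that every High and Mid library lay above every Neg library. It rose against Neg in WT by 4.76 (SE 0.70, adjusted p = 1.82e-05) in High and 5.92 (SE 0.70, adjusted p = 3.00e-06) in Mid (limma). Neg of ΔHx held 3 reads, against 104 in High, a ratio of 29.4 (9.80 to 145), and 112 in Mid, a ratio of 36.8 (12.3 to 181), with limma's adjusted p at 0.00022 and 0.000107. WT Mid also lay above WT High without overlap, but High against Mid did not pass the test, at -1.16 (SE 0.70, adjusted p = 0.257).

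Serpinb1a, an inhibitor of neutrophil elastase and related proteases, was seen mainly in Mid. WT Mid held 28.8, 25.8 and 30.5 and ΔHx Mid 10.2, 6.83 and 2.28. WT High held 1 read in all against 83 in WT Mid, so that Mid was higher by a ratio of 86.9 (15.2 to 3473), and ΔHx High held 0 reads against 20, at least 2.47-fold lower at a floor of 3 reads per library. Neg held 1.23, 1.01 and 1.81 in WT and 10, 0 and 2.06 in ΔHx, where replicate 1 was as high as the Mid libraries. Outside WT Mid it reached 10 only in replicate 1 of ΔHx Mid and of ΔHx Neg, so it was tested because of WT Mid. The limma calls of WT Mid above WT Neg (3.65) and above WT High are therefore given as a description with no test. In ΔHx, High was below Mid by limma (adjusted p = 0.0146). That call ended without ΔHx Mid replicate 1 (0.0644) and with the compared groups alone (0.0516). Serpinb9, the inhibitor of granzyme B, ran the other way in WT. Its values were 3.6, 6.37 and 4.43 in WT High and 39.4, 34.5 and 44.4 in WT Neg, and High minus Neg was -2.82 (SE 0.61, adjusted p = 0.00087) by limma. WT Mid spread from 2.74 in replicate 1 to 35.3 and 27.0 in the others and overlapped WT High. In ΔHx no gate contrast called Serpinb9 by limma, and its ΔHx High values are given with the genotype contrasts below.

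C1 inhibitor and Hsp47 had their highest values in the WT Mid libraries. Serping1 (chr2:84765387-84775444, minus strand) encodes C1 inhibitor, which controls the complement proteases C1r and C1s, plasma kallikrein and factor XII. Its WT Mid values were 1075, 199.6 and 219.7, and the other 15 libraries lay between 37.5 and 84.7. Against a median of 51.5 over those 15, the WT Mid libraries stood at 20.9, 3.87 and 4.26 times. By limma it rose in WT Mid against Neg by 3.07 (SE 0.45, adjusted p = 3.60e-05) and was lower in WT High than in WT Mid, at -2.43 (SE 0.45, adjusted p = 0.0005); the change in ΔHx Mid against Neg was 0.53 (SE 0.45, adjusted p = 0.386).

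Serpinh1 (chr7:99345376-99353239, minus strand) encodes Hsp47, the chaperone that binds procollagen in the endoplasmic reticulum and is needed for secretion of collagen IV. WT Mid held 31259, 5821 and 9789. The other 15 libraries lay within 3653 to 5328 with a median of 4379, and the WT Mid libraries stood at 7.14, 1.33 and 2.24 times that median. Serpinh1 was thus even across gates and genotypes apart from WT Mid, where 1 library was far above the others. It rose in WT Mid against Neg by 1.38 (SE 0.35, adjusted p = 0.00495) and was lower in High than in Mid, at -1.56 (SE 0.35, adjusted p = 0.00265). Without WT Mid replicate 1 these changes were 0.70 (adjusted p = 0.00614) and -0.87 (0.00141), with array weights they were 0.59 and -0.86, and in models of the compared groups alone both calls ended (0.0569 and 0.0677). In ΔHx, Mid against Neg was -0.10 (SE 0.35, adjusted p = 0.847).

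**Figure D3:**
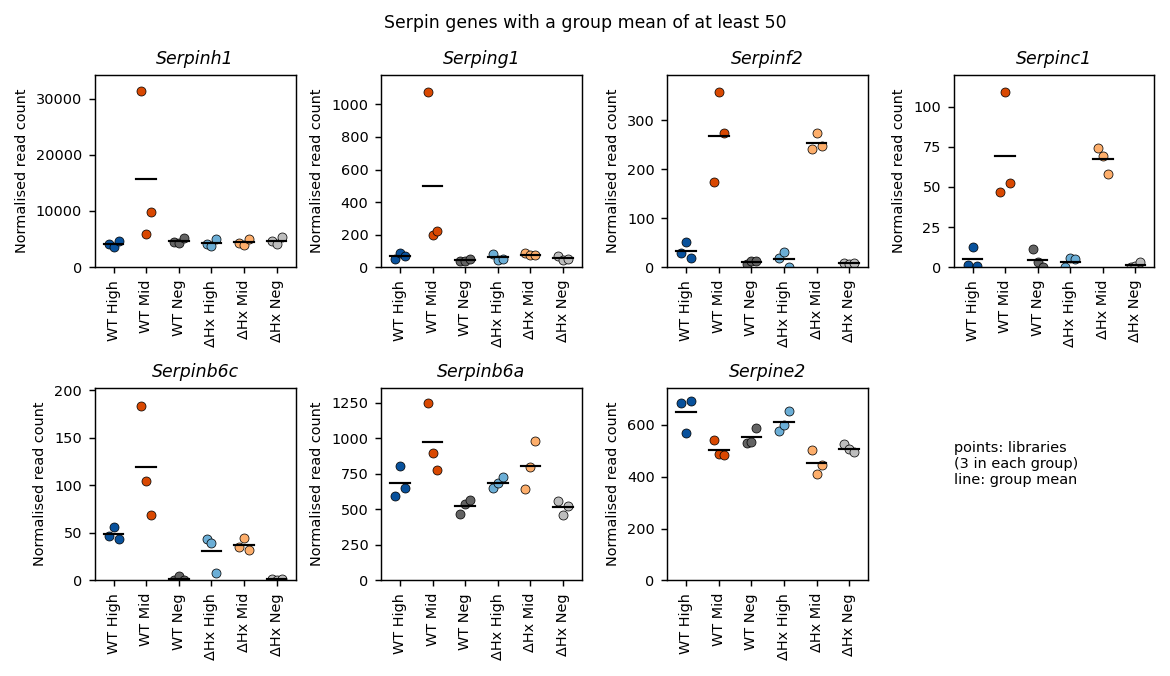
Normalised read count (y axis, linear, from 0) of the 7 serpin genes with a group mean of at least 50, by group of genotype and gate; points are libraries, 3 in each group, and lines are group means. Serpinh1 and Serping1 are high in WT Mid with replicate 1 at the top (31259 and 1075), while Serpinf2 and Serpinc1 are high in Mid of both genotypes.

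The second question was whether the helix deletion changed serpin expression within a gate. In Mid, 1 of the 16 tested members was called by limma, beside 0.401% of all genes tested (59 of 14711) in either direction and 0.326% that fell; edgeR and DESeq2 called 2, beside 0.503% and 1.22% of genes. The member was Serping1, which fell by 2.23 on the log2(value + 1) scale in ΔHx (SE 0.45, limma adjusted p = 0.0296), from 1075, 199.6 and 219.7 in WT to 84.7, 72.2 and 73 in ΔHx, with no overlap. The fall was 1.44 without WT Mid replicate 1 and the call then ended (adjusted p = 0.0752); it also ended without ΔHx Mid replicate 1, 2 or 3 (0.0779, 0.132 and 0.0965) and in a model of these groups alone (0.491), while edgeR (0.00948) and DESeq2 (4.31e-06) on the recovered reads called it.

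Serpinh1 did not pass the test in Mid at -1.47 (SE 0.35, adjusted p = 0.0823), with WT at 31259, 5821 and 9789 and ΔHx at 4262, 3872 and 5055, again without overlap. It passed with edgeR (0.0228), DESeq2 (0.00592) and without WT Mid replicate 2 (-2.0, 0.00126), and without WT Mid replicate 1 it was -0.79 (0.0781). Serpinb1a in Mid was -2.15 (SE 0.78, adjusted p = 0.393) and Serpinb6c -1.54 (SE 0.70, adjusted p = 0.589), neither past the threshold, and their WT and ΔHx libraries did not overlap. Serpinb1a was tested only because of its WT Mid values, so its difference here is a description. Serpinf1, which encodes a secreted non-inhibitory serpin and is named because its unadjusted p was under 0.05, had 0, 3.82 and 15.7 in Mid of WT and 16.7, 21.5 and 18.2 in Mid of ΔHx, 2.19 (SE 0.86, adjusted p = 0.47), which was 1.14 without WT Mid replicate 1. These were the 5 members with an unadjusted p under 0.05 in Mid. Because members were picked by that p, here and in High, lack of overlap between their groups adds no support. Its share over all genes tested was not counted.

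Parietal endoderm markers moved with these genes. Of the 13, 9 fell in ΔHx Mid against WT Mid and 0 rose, with a median of -2.05 against 0.00 over all genes tested, and their sums of 272465, 46635 and 71579 in WT Mid ranked its libraries in the same order as Serpinh1 and Serping1 did. Over all genes tested, 0.326% fell in this contrast and 0.401% were called in either direction. None of the 13 was at 0 in any group. The visceral endoderm markers did not move with them: 0 of 23 tested were called in the same contrast, with a median of 0.02. Serpinf2 and Serpinc1 likewise gave -0.02 (SE 0.81, adjusted p = 1) and 0.06 (SE 0.93, adjusted p = 0.999) in Mid, with SEs that leave room for sizeable differences in either direction. The part of parietal endoderm cells in the Serping1 and Serpinh1 values was not tested.

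**Figure D4:**
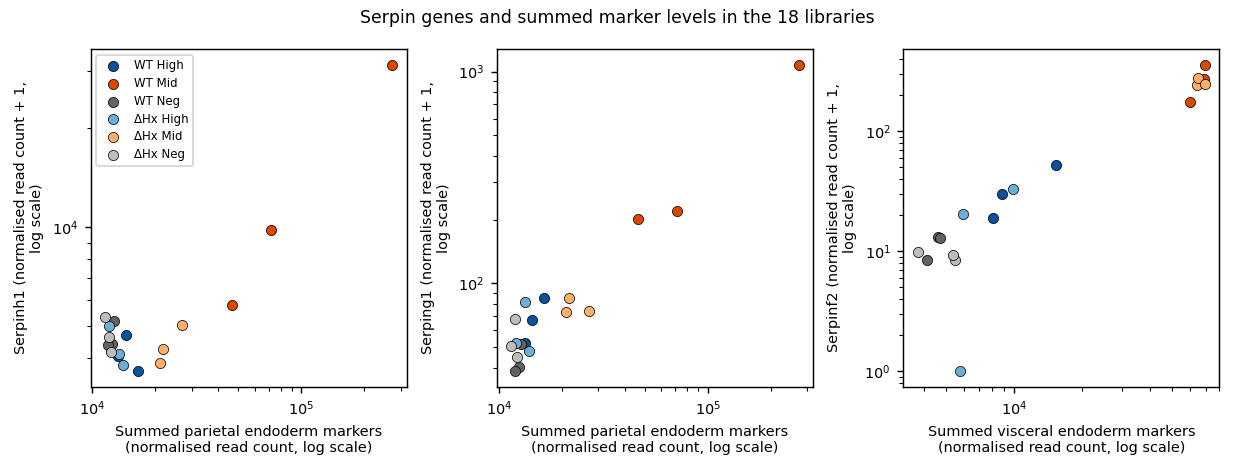
Serpinh1, Serping1 and Serpinf2 in each of the 18 libraries (y axes, normalised read count plus 1, log scale) against the summed level of 13 parietal or 25 visceral endoderm markers (x axes, normalised read count, log scale); points are libraries coloured by group. WT Mid replicate 1 is at the far right for the parietal sum (272465) with the highest Serpinh1 and Serping1, and the 6 Mid libraries of both genotypes lie together for the visceral sum and Serpinf2.

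In High, 0 of 16 members were called by limma (0.122% of all genes tested were) and by edgeR (0.109%), 2 had an unadjusted p under 0.05, and DESeq2 called 1 (0.606% of genes). The 1 was Serpinb9, at 3.6, 6.37 and 4.43 in WT High and 19.3, 33.5 and 37.9 in ΔHx High, without overlap, 2.4 (SE 0.61, adjusted p = 0.172) by limma and an adjusted p of 0.00815 by DESeq2. The other was Serpinf2, -1.82 (SE 0.81, adjusted p = 0.607), whose groups overlapped and which was -0.25 without ΔHx High replicate 3. In Neg, 0 of 16 were called by limma, edgeR or DESeq2 and 0 had an unadjusted p under 0.05, beside 0.245%, 0.156% and 0.354% of all genes. The tests of whether genotype effects differ between gates called 0 members by limma and edgeR in each of 3 differences, where 0.0136% (Mid minus High), 0.0% (Neg minus High) and 0.0068% (Mid minus Neg) of genes were called, and 3, 2 and 4 members had an unadjusted p under 0.05. edgeR called 0.0068%, 0.0% and 0.0% of all genes in these differences and DESeq2 0.177%, 0.0408% and 0.137%; DESeq2 called 0, 0 and 1 members. The difference for Serping1 was -2.04 (SE 0.63, adjusted p = 0.561) in Mid minus High and -2.54 (SE 0.63, adjusted p = 0.537) in Mid minus Neg, the 1 call of DESeq2; for Serpinh1 it was -1.53 (SE 0.49, adjusted p = 0.601) and -1.49 (SE 0.49, adjusted p = 0.801), both called when WT Mid replicate 2 was left out.

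**Figure D5:**
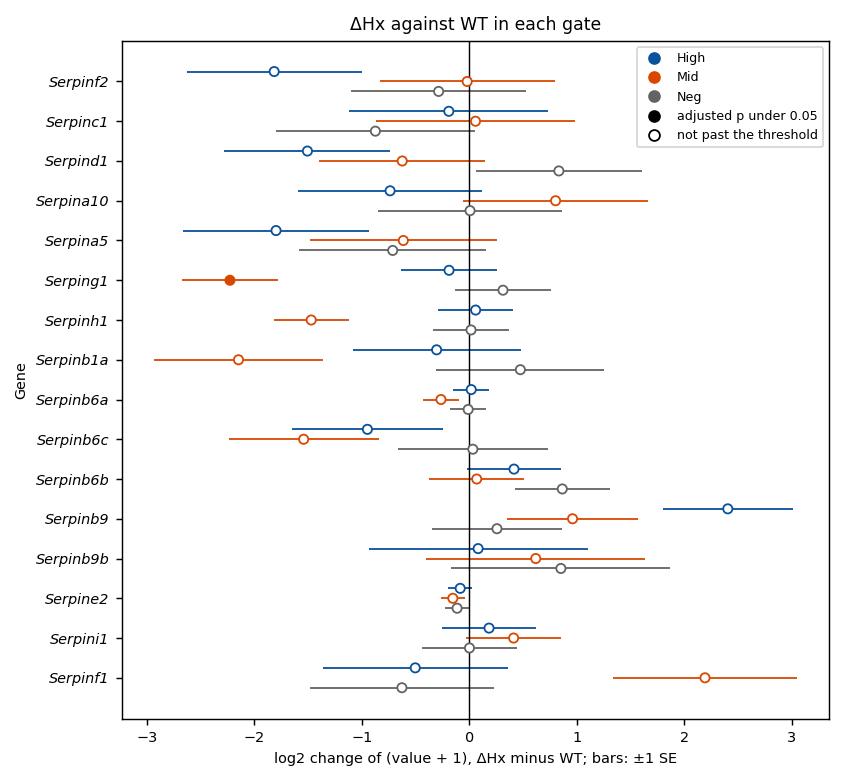
Change of the 16 tested serpin genes in ΔHx against WT within each gate, as the difference of log2(value + 1) on the x axis, with bars of 1 standard error. The single filled point is Serping1 in Mid at -2.23; Serpinb9 in High at 2.40 and Serpinh1 in Mid at -1.47 are open.

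No limma call was made for 4 tested members with the settings used throughout, which is not a sign that they did not change. Serpini1, neuroserpin, an inhibitor of tissue plasminogen activator, had a value in all 18 libraries between 13.7 and 76.1 and was called in none of the 12 contrasts. Serpinb6b, Serpinb9b and Serpinf1 were also called in none; they are named here after their values were seen. Serpinb6b ran from 11.1 to 47, Serpinb9b from 0 to 63.9 and Serpinf1 from 0 to 26.4. Other settings did call some: Serpini1 and Serpinf1 were lower than in Neg in WT High and WT Mid under quantile normalisation, as was Serpinf1 in both with array weights or a pseudocount of 5. Serpinf1 was also called in WT High against Neg with the compared groups alone, in WT Mid against Neg without WT Mid replicate 3, and in ΔHx High against Mid with a pseudocount of 5 or without ΔHx High replicate 2. Serpinb6b was higher in WT Mid than in WT Neg with array weights, and Serpinb9b lower in ΔHx High than in Mid with a pseudocount of 5, and than in Mid and in Neg without ΔHx High replicate 2. Serpinb6b, Serpinb9b and Serpinf1 held 592, 395 and 200 reads over all 18 libraries, and that depth limits the differences that could be detected.

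The coagulation list holds proteases and cofactors that serpins act on, with fibrinogen chains, vitamin K enzymes and the inhibitors Tfpi and Tfpi2. Of its 20 tested genes, 14 rose and 1 fell in WT Mid against Neg (median 2.80) and 13 rose and 2 fell in ΔHx (median 1.68). Over all genes tested, 17.4% rose and 32.9% were called in either direction in WT, and 17.9% and 34.3% in ΔHx. Fga, Fgb and Fgg, which rose in both genotypes, are also on the visceral endoderm list. The same shares stand beside the Mid against Neg counts of every list below. Listed genes that passed the filter only through Mid were not set apart in these counts. Tfpi, the inhibitor of the tissue factor pathway, had 1244, 943 and 1019 in WT Mid against 131, 156 and 182 in WT Neg, a rise of 2.77 (SE 0.18, adjusted p = 1.16e-09), and 2.5 (SE 0.18, adjusted p = 6.21e-09) in ΔHx. Vkorc1, the vitamin K reductase, rose by 1.54 (SE 0.16, adjusted p = 7.11e-07) and 1.5 (SE 0.16, adjusted p = 1.18e-06). F3, tissue factor, and Thbd, thrombomodulin, rose in WT Mid against Neg by 3.3 (SE 0.46, adjusted p = 2.39e-05) and 4.26 (SE 0.90, adjusted p = 0.00127); in ΔHx they were -0.05 (SE 0.46, adjusted p = 0.952) and 1.01 (SE 0.90, adjusted p = 0.412). Within Mid F3 fell in ΔHx against WT by 2.97 (SE 0.46, adjusted p = 0.00513), the 1 of 20 called, beside 0.401% of all genes tested. Thbd, which is also on the parietal endoderm list, was -3.99 (SE 0.90, adjusted p = 0.0605). The F3 values of WT Mid, 1073, 184 and 494, were highest in replicate 1, as were those of Serping1.

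Of 12 tested genes of plasminogen activation, the system that Serpinf2 and Serpine2 restrain, 5 rose and 2 fell in WT Mid against Neg and 6 rose and 2 fell in ΔHx (medians 0.42 and 0.44). Vtn, vitronectin, was 1095, 1052 and 1690.2 in WT High, 82.2, 159 and 238 in WT Mid and 18.5, 0 and 0 in WT Neg, so that its highest gate was High and not the gate of Serpinf2. Plat, tissue plasminogen activator and also a parietal endoderm marker, rose in Mid against Neg by 2.62 (SE 0.25, adjusted p = 1.63e-07) in WT and 1.47 (SE 0.25, adjusted p = 0.000158) in ΔHx and fell in ΔHx Mid against WT Mid by 1.23 (SE 0.25, adjusted p = 0.0277). Mmp2, a matrix metalloprotease, fell in Mid against Neg by 0.98 (SE 0.17, adjusted p = 0.000252) in WT.

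Of 20 listed leukocyte and lysosomal proteases that serpins can bind, 8 were tested. Of the 8, 6 rose and 0 fell in Mid against Neg in each genotype (medians 2.27 in WT and 2.01 in ΔHx), and these were 5 cathepsins (Ctsl, Ctsc, Ctsb, Ctsh and Ctsz) with Gzmk in WT and Prtn3 in ΔHx. Ctsl, cathepsin L, held 17781, 10813 and 13224 in Mid of WT and 10020.4, 11133 and 11757 in Mid of ΔHx against 2394 to 2654 in the 6 Neg libraries. Ctsh rose by 4.75 (SE 0.29, adjusted p = 6.36e-10) in WT, Ctsc by 3.23 (SE 0.15, adjusted p = 1.93e-11) and Ctsb by 2.11 (SE 0.09, adjusted p = 1.93e-11). Of the 20 listed proteases the others, among them Elane and Gzmb, the leukocyte targets of Serpinb1a and Serpinb9, did not pass the filter on low values. Of 15 tested membrane serine proteases, 7 rose and 1 fell in WT and 7 rose and 0 fell in ΔHx, led by Tmprss2 (4.71 (SE 0.26, adjusted p = 2.20e-10) in WT). Of 19 tested inhibitors of other families, 10 rose and 2 fell in WT and 8 rose and 2 fell in ΔHx; Spink1, a Kazal-type trypsin inhibitor, rose by 5.24 (SE 0.38, adjusted p = 6.23e-09) in WT and 4.88 (SE 0.38, adjusted p = 1.89e-08) in ΔHx, to 7001, 7799.8 and 5555 in WT Mid. Of 10 receptors and chaperones of serpin clearance, 4 rose and 1 fell in WT and 5 rose in ΔHx, led by Cubn (5.08 (SE 0.41, adjusted p = 2.56e-08) and 4.99 (SE 0.41, adjusted p = 3.53e-08)) and Dab2 (3.38 (SE 0.29, adjusted p = 6.47e-08) and 2.99 (SE 0.29, adjusted p = 3.43e-07)), both also on the visceral endoderm list. Of 6 tested complement genes, 3 rose in WT (Cfi, Cfb and C1s1) and 2 in ΔHx (Cfi and Cfb). In ΔHx against WT in Mid 0 of 6 were called, beside 0.401% of all genes tested, a share at which 0 of 6 says little.

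The partners of Hsp47 in collagen folding and secretion form the last list. Of 25 tested, 16 rose and 1 fell in WT Mid against Neg (median 0.55), against 3 and 1 in ΔHx (median 0.12), and in ΔHx against WT in Mid 0 rose and 3 fell (median -0.63). Over all genes tested, 17.4% rose in WT Mid against Neg and 17.9% in ΔHx, and the rises of this list in ΔHx did not exceed that share. In ΔHx against WT in Mid, 0.326% of all genes tested fell. The 3 listed genes that fell there were Plod2, a lysyl hydroxylase, P4ha2, a prolyl hydroxylase subunit, and Kdelr3, a receptor that returns proteins to the endoplasmic reticulum. P4ha2 had 4567, 452 and 844 in WT Mid against 124, 86.8 and 152 in ΔHx Mid and was -3.34 (SE 0.54, adjusted p = 0.00695). Plod2 was -1.61 (SE 0.33, adjusted p = 0.0296) and Kdelr3 -2.2 (SE 0.43, adjusted p = 0.0228), all by limma. In each of these genes WT Mid replicate 1 was highest and replicate 2 lowest within the group, the order of the parietal endoderm sums. The list was drawn up with results of these data known, so its counts are no independent support for the Serpinh1 values.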

How the data were processed

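RNA of 18 libraries, 3 in each of 6 groups, was read from 1 end for 75 bases, per the labels' protocols. The authors deposited signal values: HTSeq counts per gene after division by the size factor of the library. STAR 2.5.2a, HTSeq 0.6.1, DESeq, DESeq2 and the mm10 build were used per the submitters' processing notes, and their annotation is not stated there. All 440964 values were whole multiples of 1 read within 1e-06 reads. Counter lines (5) were left out; they held 7.17% to 12.1% (no feature), 0.495% to 0.756% (ambiguous) and 37.7% to 41.3% (not unique) of what was counted. Rn45s took 23.7% to 44.0% of the reads in genes.

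The 14711 genes that reached 10 in 3 or more libraries were tested with limma 3.58.1 in R 4.3.3 on log2(value + 1), in 1 model of 6 group means with a variance trend, two-sided, with Benjamini-Hochberg adjustment within each contrast and a threshold of 0.05. Fold changes on this scale understate those of low genes. Steps were tested on simulated data. Alternatives included other pseudocounts and filters, quantile normalisation, equal totals without Rn45s, array weights, the compared groups alone, a replicate block, each library left out, and edgeR 4.0.16 and DESeq2 1.42.0 on the recovered reads. Exact 95% intervals of read ratios cover counting error only, and where a group had 0 reads the bound used a floor of 3 in each library. Positions come from GENCODE on mm10 and promoters from RefSeq GRCm38.p6.

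The members and lists were chosen with earlier results of these data known. Members with a group mean of at least 50 and members called in a genotype contrast are described with most of their library values. The other tested members are described more briefly. Up to 4 called genes of a related list are named. The leukocyte and lysosomal list is the exception, with all genes called in Mid against Neg named. Of 8 related and 9 marker lists, the parietal, visceral and node marker lists are the ones whose values are given. No library was taken for a copy of another: replicates of a group differed over genes with a chi-square of 4.82 to 95.3 per degree of freedom. Replicate numbers were not used to pair samples.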

Additional observations from a re-analysis of the deposited data

How the results depend on the processing

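Of 144 counts of called members under other settings, 126 stayed within 1.5 times the main count, as did 80 of 90 with 1 library left out. Of the changes of single members, 432 of 454 and 204 of 234 kept their direction and their side of the threshold, and 0 reversed; the cause of the others was not tested. WT High against Neg called 4 members: 7 with array weights, 7 with the compared groups alone and 1 with a filter at 50, under which fewer genes were tested. ΔHx High against Neg called 2: 5 with equal totals, 4 with array weights, edgeR or DESeq2 and 1 with a pseudocount of 5 or a filter at 50. WT High against Mid called 7 and, with the compared groups alone, 4. ΔHx High against Mid called 5, and 3 with a filter at 50 or the compared groups alone. ΔHx against WT called 1 in High with DESeq2, where limma called 0; in Mid, where limma called 1, it was 2 with no filter, edgeR or DESeq2 and 0 with the compared groups alone. The difference of genotype effects in Mid minus Neg called 1 with DESeq2 and 0 by limma.

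With 1 library left out the counts ran from 4 to 5 (WT High against Neg), 8 to 11 (WT Mid against Neg), 5 to 8 (WT High against Mid), 1 to 3 (ΔHx High against Neg), 4 to 6 (ΔHx Mid against Neg) and 3 to 7 (ΔHx High against Mid). ΔHx against WT gave 0 in High and Neg and 0 to 2 in Mid, and the differences between gates 0 to 1 (Mid minus High and Mid minus Neg) and 0 (Neg minus High). ΔHx High against Neg fell to 1 without ΔHx Neg replicate 3, and ΔHx High against Mid to 3 without ΔHx Mid replicate 1 or 2.

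Libraries with equal replicate numbers tended to deviate together between gates of a genotype. The correlation of their deviations from the group means was 0.0156 to 0.291 there (18 pairs, median 0.0813). Its median was -0.0139 over all pairs with unequal numbers, and it was -0.171 to 0.0820 between genotypes in a gate. The labels do not say whether gates with the same number came from 1 sort, and the main model left the numbers out. Its p-values between gates therefore ignore any such pairing, and a block within each genotype was not fitted. The replicate block gave both genotypes the same block terms. With it the counts were 4, 9 and 6 in WT (High against Neg, Mid against Neg, High against Mid), 2, 6 and 5 in ΔHx and 0, 1 and 0 for genotype in High, Mid and Neg. Low read counts limit what could be detected for the 9 tested members with no group mean of 50.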
